A study of Rattus norvegicus with 47 samples.

Results

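The small nuclear RNAs (snRNAs) of kidney and urine were taken as every row that the small RNA tables class as snRNA, and they were grouped by the part of the name before the dot. The kidney table held 88 such rows out of 812, and the urine table held 45 out of 507. Together they made 91 rows of the 16066 rows in the series, of which 42 were listed in both tables, 46 in the kidney table alone and 3 in the urine table alone. The kidney rows were 22 of U6, 21 of U2, 15 of U1, 10 of U5, 5 of U4, 4 of U7 and 2 of U12, and the other 9 carried a genomic clone name or no name and were given no family. The urine rows were 15 of U1, 12 of U2, 5 of U5, 3 of U7, 2 each of U4, U6 and U12, and 4 with a clone name or no name.

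The rats were male Wistar Han rats fed either a standard diet (SD) or a high-fat diet (HFD) for 10 weeks, with no other treatment or genetic change named. Kidney small RNA was measured in 7 SD and 8 HFD rats, urine small RNA in 8 SD and 8 HFD rats, and kidney mRNA in 8 and 8. Each library came from a single animal and is named here by diet and rat number, and kidney and urine libraries with the same number came from the same rat. The urine RNA was cell-free and exosomal RNA together. Whole kidney tissue was used, so fewer cells of a type and less RNA per cell cannot be told apart.

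The spliceosome removes introns from pre-mRNA and is built on snRNAs that are each packed with proteins into a particle (snRNP). U1 pairs with the start of the intron and U2 with the branch point, and U4, U5 and U6 join as a tri-snRNP in which U4 holds U6 by base pairing until the complex is activated. U12 takes the place of U2 in the minor spliceosome. U7 is not spliceosomal: it directs the 3′ end cleavage of histone pre-mRNA, so 4 kidney rows and 3 urine rows fell outside what the word spliceosomal covers. U6 is made by RNA polymerase III and the other families named here by RNA polymerase II. Mammalian genomes carry many near-identical copies and pseudogenes of these RNAs, and a short read often matches several of them.

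Rows of a family therefore were not independent of each other. In kidney, U7.31 and U7.39 differed by 0.0338% summed over the libraries, U12.4 and U12.6 by 0.0702%, and the clone-named AABR07061187.1 and an unnamed row by 0.0706%. In urine these same pairs held equal values in all 16 libraries. U1.69 and U1.205 differed by 1.87% in kidney and 2.96% in urine. Where such copies share reads, a family sum counts a read more than once, and the copy that made the RNA is uncertain.

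Depth was 3429473 to 10584069 assigned reads in the kidney libraries and 282241 to 11932003 in the urine libraries, of which 22508 to 76408 and 197 to 6483 were snRNA reads. Values are given as normalized reads, which are reads divided by the size factor of the library. In urine, the HFD libraries were deeper, with a median of 5382860 assigned reads against 1323860 in SD. The kidney size factors fell into a low set of 0.507 to 0.745 (5 SD and 3 HFD libraries) and a high set of 1.26 to 1.70 (2 SD and 5 HFD libraries), so the diets were unevenly spread over those sets. Of the kidney markers, uromodulin (Umod) was at 60580 or more in every kidney mRNA library, and Lrp2 ran from 19426 to 39936. Slc34a1 ran from 7487 to 65707, Slc12a1 from 14095 to 70936, Aqp2 from 2456 to 25083 and Nphs1 from 127 to 1545. The leukocyte gene Ptprc ran from 42.3 to 143, and the neutrophil genes S100a8 and S100a9 reached no more than 12.2 and 33.7. The urothelial genes Krt5, Upk1b and Upk3a were highest in HFD rat 1255, at 1346, 2074 and 1919. In urine, the red cell miRNAs miR-451-5p and miR-144-3p, the leukocyte miRNAs miR-223-3p and miR-142-3p, and liver miR-122-5p were not among the listed rows.

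snRNA reads made up 0.879% ± 0.448 (s.d., n = 15) of the assigned reads of a kidney library and 0.0898% ± 0.0581 (s.d., n = 16) of those of a urine library. In kidney the share ran from 0.279% in SD rat 1250 and 0.282% in HFD rat 1271 to 2.15% in SD rat 1248. In urine it ran from 0.00724% in HFD rat 1267 to 0.203% in SD rat 1247. The tables were normalized separately and the urine table also lists tRNA rows, so the shares stand side by side without a test. Their order depends on the denominator: over snRNA, miRNA, snoRNA and rRNA reads alone, the share was 0.934% ± 0.485 in kidney and 7.20% ± 5.06 in urine.

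The families took different places in each material. U2 was the leading family in kidney, with 56.8% ± 13.8 (s.d., n = 15) of the snRNA reads, followed by U1 with 13.0% ± 4.30, U7 with 11.7% ± 8.81 and U5 with 11.3% ± 3.44. U6 held 1.63% ± 1.25, U12 1.07% ± 0.583 and U4 0.448% ± 0.371. In urine, U1 held 50.9% ± 18.8 (s.d., n = 16) and U2 43.5% ± 17.8, whereas U6, U12, U7, U5 and U4 each averaged between 0.168% and 1.47%. U2 reads outnumbered U1 reads in 15 of 15 kidney libraries and in 7 of 16 urine libraries, and U5 and U7 were level in kidney, with U5 ahead in 8 of 15 libraries. Within the 15 rats that had both libraries, the U1 share was higher in urine than in kidney in 15 rats, by a mean of 38.6 percentage points and by 74.4 points at most. The U5 and U7 shares were lower in urine in all 15, by a mean of -10.4 ± 3.98 and -10.6 ± 7.96 points (s.d.), and U2 was lower in 12 of 15. These differences are given without a test, since a family sum can count a read more than once.

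**Figure D1:**
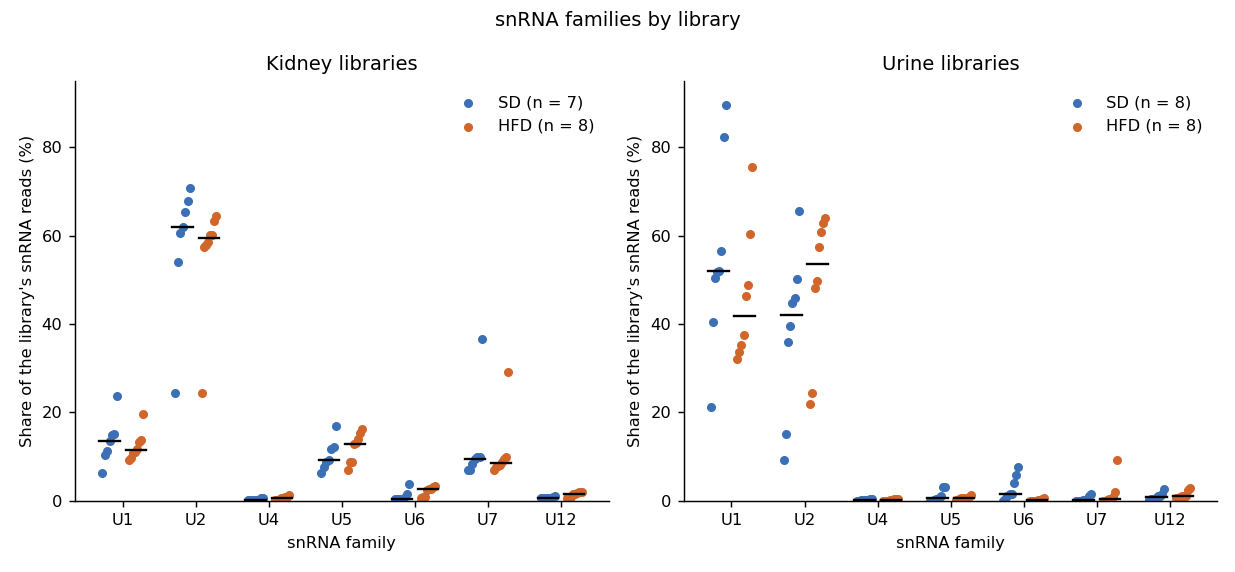
Share of the snRNA reads of each library (%, linear axis) held by 7 snRNA families in kidney (left, SD n = 7 and HFD n = 8) and urine (right, n = 8 each). Points are libraries and black lines are medians. U2 led in kidney except in SD rat 1250 and HFD rat 1271, where its share was 24.4% and 24.5%, and U1 and U2 shared nearly all urine snRNA reads.

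Within a family, a few rows held most of the reads. U2.79 was the highest snRNA row in kidney, with a mean of 11269 normalized reads, which was 5869 per 100 bases of its 192-base annotation on chromosome 4 (91233098 to 91233289, minus strand, Rnor6.0). The 3 highest of the 21 U2 rows held 76.0% of the U2 level and the lowest, U2.51, had a mean of 11.3. Per 100 bases, the leading rows of the other kidney families followed in the order U7.31 (2939), U5.1 (1675), U1.190 (907), U12.4 (191), U6.248 (83.5) and U4.8 (42.4). The 22 U6 rows were spread more evenly, since the 3 highest held 31.2% of the U6 level.

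In urine, U1.70 led with a mean of 245 normalized reads, or 149 per 100 bases, followed by U2.79 with 201, or 105 per 100 bases. The leading rows of the other urine families were at 8.76 per 100 bases for U6.709, 5.41 for U12.4, 3.62 for both U5.1 and U7.31, and 0.859 for U4.56.

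The 42 rows listed in both tables kept their order only in part, with a Spearman rho of 0.33 between kidney and urine means (0.83 over the 14 U1 rows and 0.47 over the 12 U2 rows), as a description, since copies share reads. U2.26 and U2.40 ranked 2 and 3 in kidney, at 8803 and 6897, but 14 and 11 in urine, at 18.6 and 21.4. U2.10 and U2.83 ranked 17 and 26 in kidney, at 773 and 350, and 4 and 5 in urine, at 182 and 177. Those 4 rows were singled out after their values were seen. The 2 U6 rows of the urine table were not among the 22 of the kidney table, so no U6 row can be set side by side.

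**Figure D2:**
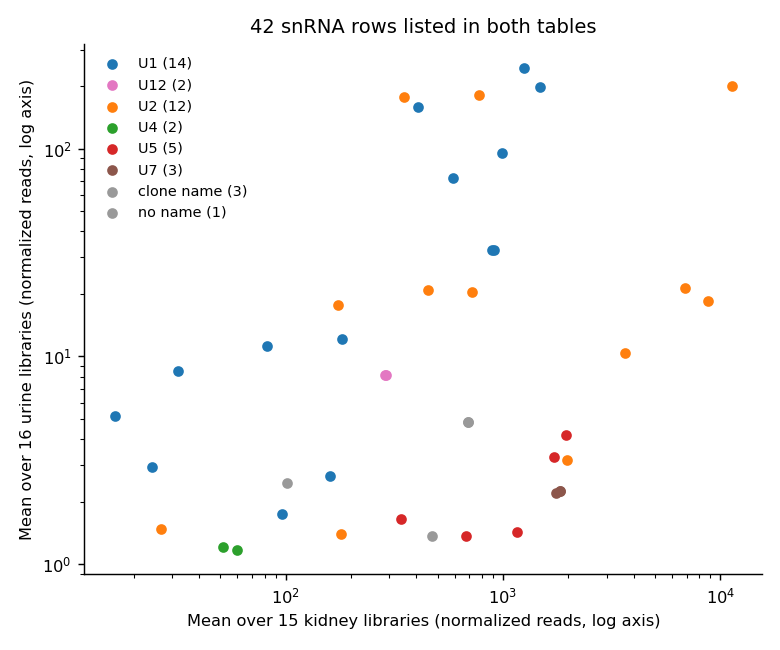
Mean normalized reads of the 42 snRNA rows listed in both tables, over 15 kidney libraries (x axis, log scale) and 16 urine libraries (y axis, log scale), coloured by family. The U5 and U7 rows lie low in urine for their kidney level, and U2.79 is high in both materials.

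The diet comparison in kidney asked whether a high-fat diet changed the snRNAs of the tissue. No snRNA passed the threshold of adjusted p under 0.05 and an absolute log2 difference over 1 in limma. None passed with edgeR or DESeq2. In direction, 22 of 22 U6 rows and 5 of 5 U4 rows had a higher mean log2 level in HFD. So did 59 of 88 snRNA rows and 402 of all 812 rows. The same threshold called 0 of all 812 rows (0%) in each direction in limma, and the smallest adjusted p was 0.338. The paper used another test, DESeq2 on counts, and reports kidney small RNAs past this threshold. None of the snRNAs that it lists for kidney has an adjusted p under 0.05 there. At an unadjusted p under 0.05 and a log2 difference over 1, limma gave 17 snRNA rows higher in HFD (19.3% of 88) and 0 lower, beside 5.3% of all rows higher and 5.67% lower. edgeR and DESeq2 each gave 13 snRNA rows higher, for which the share over all rows is not given here. These 17 rows were 12 of U6, 2 of U4, 2 of U2 and the clone-named AABR07030599.1.

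The median log2 difference (HFD minus SD) was 1.26 over the U6 rows and 1.08 over the U4 rows, beside -0.01 over all 812 rows. It was 0.60 for U12, 0.06 for U2, 0.03 for U5, -0.27 for U1 and -0.28 for U7. Multi-copy rows share reads, so these counts are not counts of independent RNAs.

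**Figure D3:**
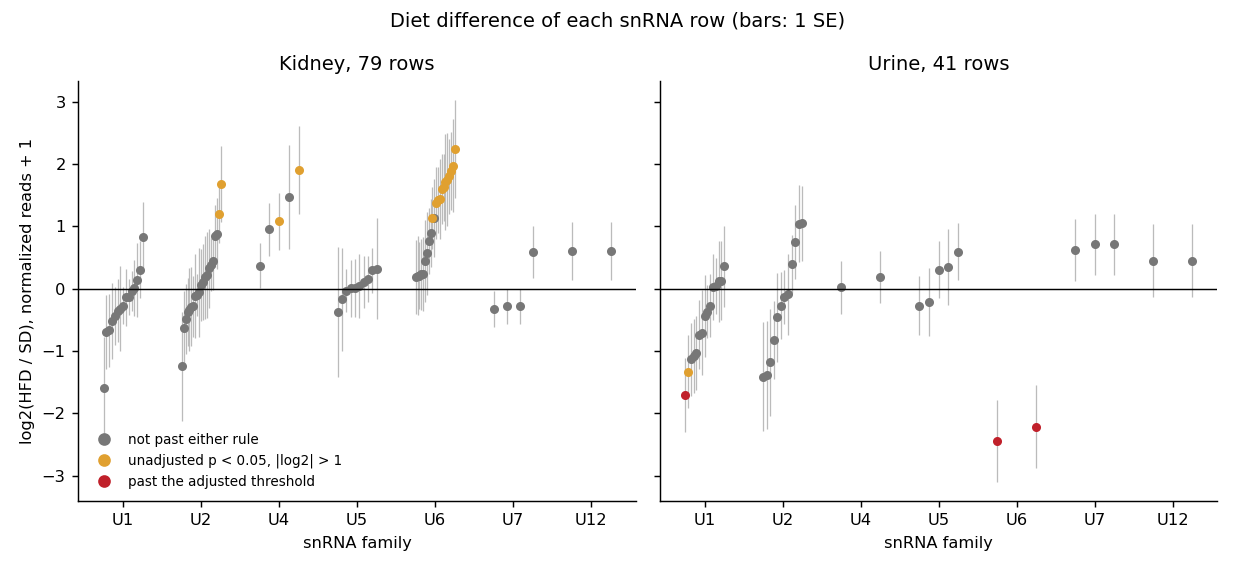
log2 difference between HFD and SD of each named-family snRNA row on the scale of normalized reads + 1, in kidney (left, 79 rows) and urine (right, 41 rows), with bars of 1 standard error. Red points passed the adjusted threshold of their material and yellow points only an unadjusted p under 0.05 with an absolute log2 difference over 1. The 22 kidney U6 rows lie above 0 and the 2 urine U6 rows below -2.

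Summed over its rows, U6 was at 215, 310, 369, 902, 289, 255 and 1570 normalized reads in SD rats 1244, 1245, 1247, 1248, 1249, 1250 and 1251. It was at 506, 313, 1409, 1332, 1816, 467, 663 and 1403 in HFD rats 1252, 1255, 1256, 1259, 1267, 1271, 1274 and 1275. HFD rats 1256, 1259, 1267 and 1275 and SD rat 1251 were high, the other libraries stayed at 902 or less, and only HFD rat 1267 exceeded every SD rat.

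The U4 sum was 95.4, 120, 76.9, 139, 63.7, 87.7 and 253 in the same SD rats. It was 77.1, 102, 326, 484, 383, 149, 125 and 643 in the HFD rats. The HFD rats with high U6 were also those with the highest U4, and those 4 exceeded all SD rats. In 21 of 22 U6 rows and 5 of 5 U4 rows, rats 1256, 1259, 1267 and 1275 were the 4 highest HFD rats, and SD rat 1251 was the highest SD rat in 18 and 4 of them.

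All 5 of those libraries belonged to the high set of size factors. Within the low set (5 SD, 3 HFD), U6 sums ran from 215 to 902 in SD and from 313 to 663 in HFD, so the groups overlapped. Within the high set (2 SD, 5 HFD), they were 255 and 1570 in SD and 467 to 1816 in HFD. Between the sets, 22 of 22 U6 rows and 5 of 5 U4 rows had a higher mean log2 level in the high set, beside 397 of all 812 rows. The sets still overlapped in every U6 and U4 row, whereas 139 of the 812 rows were higher in every high-set library. The median log2 difference between the sets was 1.62 over U6 and 1.46 over U4, beside -0.06 over all rows. U1, U2 and U5 rows went the other way, at -1.21, -0.86 and -1.41.

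With the set as a covariate, the median diet difference was 0.73 over U6 and 0.66 over U4, and the number of snRNA rows higher at the unadjusted threshold was 11. It was 4 within the low set, where 15 of 22 U6 rows and 3 of 5 U4 rows were above 0, and 16 within the high set, where 19 of 22 were. Leaving out HFD rat 1256, 1267 or 1275 each brought the number from 17 to 11. The share of all rows at that threshold under these settings is not given here. Leaving out SD rat 1250 left 18 of 22 U6 rows above 0. The count of all rows above 0 is not given here for these settings. The median over all rows was 0.005 within the low set, -0.0007 within the high set and -0.06 without SD rat 1250.

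Of 14 measured markers of blood cells and urothelium, miR-451-5p and miR-223-3p separated the sets without overlap. Over all 812 small RNA rows, 139 were higher in every high-set library than in any low-set library, and 125 were lower. Among the 320 miRNA rows these counts were 86 and 29, so such separation was not particular to the markers. miR-451-5p was 220 to 581 in the low set and 1469 to 8406 in the high set, and miR-223-3p was 5.37 to 17.6 and 31.7 to 92.0. The other 12 overlapped: miR-144-3p, a further red cell miRNA, ran from 18.8 to 268 and from 21.5 to 2342, miR-142-3p from 81.9 to 155 and from 115 to 2416, and Hbb mRNA from 4526 to 21259 and from 6862 to 31038. The part of these markers in the U6 and U4 values was not tested.

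**Figure D4:**
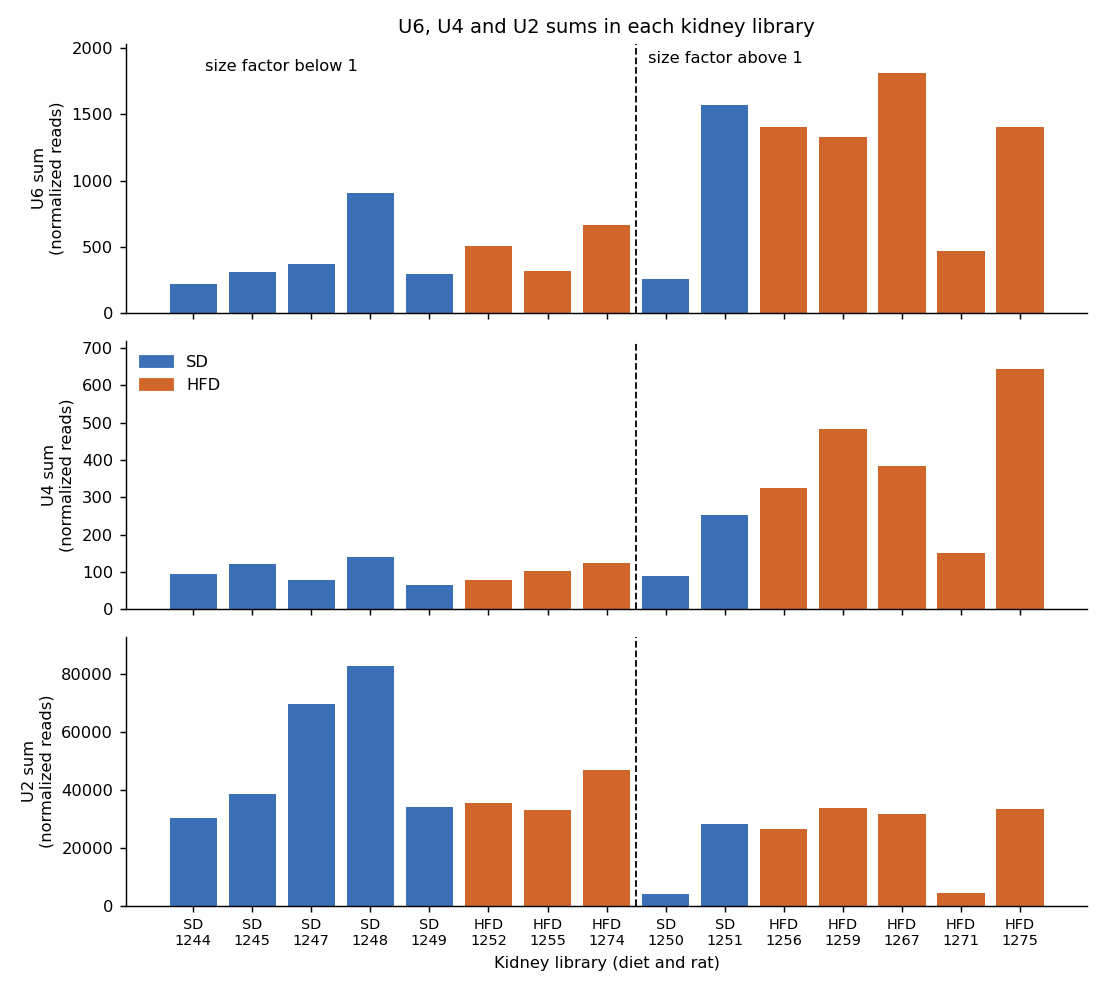
Sums of the 22 U6, 5 U4 and 21 U2 rows (normalized reads, linear axes from 0) in each of the 15 kidney libraries, ordered by set of size factors (dashed line) and then diet. U6 and U4 were high in 5 libraries of the high set, and U2 was low in SD rat 1250 and HFD rat 1271.

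U6.122, on the X chromosome (28397128 to 28397234, minus strand), had the largest log2 difference of the kidney snRNAs, 2.24 ± 0.78 (standard error; limma, adjusted p = 0.338). Its level was 4.03, 1.60, 3.94, 1.72, 1.63, 3.57 and 44.0 normalized reads in the SD rats and 6.7, 5.36, 63.7, 59.3, 77.6, 26.5, 3.37 and 66.9 in the HFD rats, in the order above. The values below 10 rest on few reads, the lowest on 1 and the highest library on 111. HFD rats 1256, 1259, 1267 and 1275 lay above all SD rats, and the other HFD rats lay within their range.

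U4.10, on chromosome 4 (150515618 to 150515759, minus strand), was 1.34, 9.60, 3.94, 8.59, 3.26, 3.57 and 42.0 in the SD rats and 5.03, 10.7, 58.7, 60.0, 58.8, 14.1, 10.1 and 104 in the HFD rats. Its log2 difference was 1.90 ± 0.71 (limma, adjusted p = 0.338). The same 4 HFD rats were above every SD rat. U6.35, U6.509 and U6.403 had differences of 1.89, 1.80 and 1.98, with 5, 4 and 4 HFD rats above every SD rat. In the SD rats other than 1251, U6.35 rested on 1 to 4 reads and U6.509 on 1 to 5. U6.403 and U4.10 rested on 1 to 6 there. The filter on low means took both diets together, so rows this low in SD can pass it through their HFD values. U6.664 and U6.908 had 1.62 and 1.60, with 1 HFD rat above all SD rats in each. U6.248, the highest U6 row, was at 65.8 ± 80.7 (s.d., n = 7) in SD and 110 ± 51.2 (s.d., n = 8) in HFD, a difference of 1.13 with overlapping groups.

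The kidney snRNA with the smallest p was AABR07030599.1, a 134-base row on chromosome 10 (95357918 to 95358051, plus strand) that the files give no family. It was 52.4, 44.8, 39.4, 58.4, 106, 17.1 and 84.6 in the SD rats and 52.0, 80.4, 184, 188, 153, 228, 86.0 and 152 in the HFD rats. HFD rats 1256, 1259, 1267, 1271 and 1275, which are the HFD rats of the high set, were above all SD rats. Its log2 difference was 1.31 ± 0.42 (adjusted p = 0.338).

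No kidney snRNA lower in HFD reached an unadjusted p under 0.05. U1.166 had the smallest p of these (difference -1.59 ± 0.82, limma, adjusted p = 0.338), with 59.1, 72.0, 71.0, 103, 65.3, 18.5 and 3.28 in the SD rats and 55.3, 41.1, 4.24, 6.90, 3.50, 2.94, 84.3 and 6.37 in the HFD rats. Its low values were all in the high set of size factors. U2.31 (-1.24), U1.69 (-0.69), U1.205 (-0.67), U2.56 (-0.63) and U7.18 (-0.32) followed, with adjusted p from 0.425 to 0.533 in limma. Of the study's listed rows, U1.42 was at 39.5 ± 24.2 in SD and 25.2 ± 9.47 in HFD kidney, a difference of -0.44 ± 0.47.

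The abundant leading rows of U2, U1, U5 and U7 in kidney did not separate the diets, and 2 libraries stood apart. The U2 sum was 3921 in SD rat 1250 and 4296 in HFD rat 1271, against 26462 to 83000 in the other 13 libraries. U2.79 was 1156 and 1071 in those rats and 8049 to 26872 in the rest. U2.79 averaged 13247 ± 8781 in SD and 9538 ± 3976 in HFD, a difference of -0.29 ± 0.63 (limma, adjusted p = 0.799). U1.190 (-0.14), U5.1 (0.01), U7.31 (-0.29), U12.4 (0.60), U4.8 (0.95) and the clone-named AABR07061187.1 (0.26) led their groups, with adjusted p from 0.338 to 0.988 in limma. Of these, U12.4 and U4.8 were not abundant, with means of 288 and 59.7. U4.8 belongs to the U4 sum, in which 4 HFD rats exceeded all SD rats. Without rats 1250 and 1271, the number of snRNA rows higher at the unadjusted threshold was 14, with no share over all rows given here. In that fit 22 of 22 U6 rows stayed above 0, beside a median of -0.02 over all rows.

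The diet comparison in urine asked whether the diet changed the snRNAs found in urine. 3 of 45 snRNA rows passed the threshold of adjusted p under 0.1 and an absolute log2 difference over 1, all lower in HFD: U6.709, U6.44 and U1.42. The paper, which used DESeq2 on counts, also lists these rows as lower in HFD. There U6.709 and U6.44 have an adjusted p under 0.1, and U1.42 does not. Over all 500 rows tested, 3% were called lower and 11.6% higher, and 0 snRNA rows were called higher. At an unadjusted p under 0.05 with the same size of difference, 4 snRNA rows were lower and 0 higher, beside 7.4% and 16% of all rows. The rows called higher were 57 miRNAs and 1 scaRNA. The median log2 difference was 0.02 over the snRNA rows, 1.37 over the 125 miRNAs, -0.30 over the 237 tRNAs tested and 0.06 over all rows.

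U6.709 (ENSRNOG00000059614; chromosome 6, 116658593 to 116658699, minus strand, Rnor6.0) was at 0, 19.4, 34.5, 13.0, 6.57, 5.75, 18.9 and 34.0 normalized reads in SD rats 1244 to 1251 in order. In HFD rats 1252, 1255, 1256, 1259, 1267, 1271, 1274 and 1275 it was at 4.96, 3.60, 0.478, 0.280, 0, 0, 8.43 and 0. The HFD values lay low, and overlapped the SD values through HFD rat 1274 and SD rat 1244. The means were 16.5 ± 12.8 (s.d., n = 8) in SD and 2.22 ± 3.15 (s.d., n = 8) in HFD, and the log2 difference was -2.44 ± 0.66 (limma, adjusted p = 0.0164). In reads, 127 fell on the row in the SD libraries and 37 in the deeper HFD libraries, which pooled over libraries was 11.5 and 0.760 per 1000000 assigned reads.

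U6.44 (ENSRNOG00000052046; chromosome 14, 9916301 to 9916407, minus strand) followed U6.709 closely, differing from it by 14.1% summed over the libraries, so that the rows may share reads. It was at 0, 23.3, 31.5, 9.11, 6.57, 1.44, 17.5 and 31.0 in SD and at 4.96, 2.88, 0.478, 0.280, 0, 0, 8.43 and 0 in HFD. Its difference was -2.21 ± 0.67 (limma, adjusted p = 0.0277), on 116 and 36 reads. Both rows were past the threshold with each library left out in turn and under 14 other settings, with edgeR and DESeq2 among them. With log2 depth as a covariate, since depth differed by diet, their differences were -3.92 and -3.79 (limma, adjusted p = 0.0242 for both). This fit can hardly separate depth from diet. SD libraries held at most 2570715 assigned reads, and HFD libraries 3690360 or more, except HFD rat 1275 at 963118.

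Some of the zeros carry little weight. The limit that a count of 0 allows, 3 reads, was 7.94 normalized reads in SD rat 1244 and 11.3 in HFD rat 1275, but 0.842 and 0.481 in HFD rats 1267 and 1271. These limits cover counting error only. Without SD rat 1244 and HFD rat 1275, a choice made after the data were seen, the differences were -2.79 for U6.709 and -2.53 for U6.44 (limma, adjusted p = 0.00483 and 0.0125).

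U1.42 (ENSRNOG00000053739; chromosome 3, 7399482 to 7399645, minus strand) was at 2.65, 37.5, 10.8, 11.7, 8.75, 12.9, 12.4 and 7.01 in SD and 2.31, 14.4, 1.43, 2.52, 0.281, 4.33, 7.13 and 0 in HFD. 5 of 8 HFD rats were below every SD rat, whose lowest, rat 1244, rested on 1 read. The difference was -1.70 ± 0.59 (limma, adjusted p = 0.0543), with means of 13.0 ± 10.5 and 4.05 ± 4.77 (s.d., n = 8 each). The call was lost on leaving out SD rat 1245 or 1249 or HFD rat 1256, 1267 or 1275 (limma, adjusted p from 0.105 to 0.142), with edgeR (adjusted p = 0.121), with a pseudocount of 5 (difference -0.97), without the libraries under 1000000 assigned reads (-1.81, limma, adjusted p = 0.199) and with log2 depth as a covariate (-2.39, limma, adjusted p = 0.199).

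**Figure D5:**
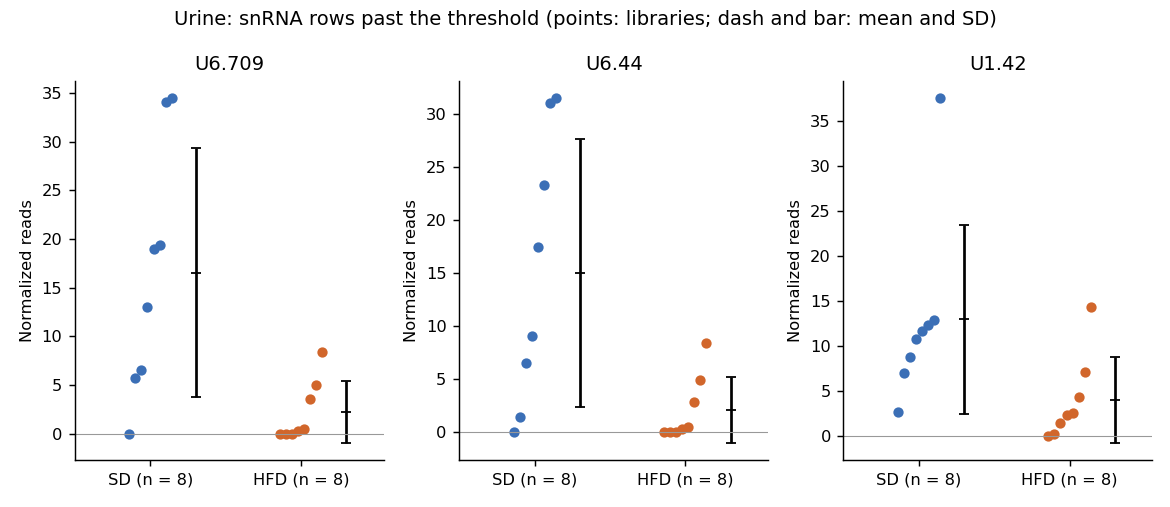
Normalized reads (linear axes) of the 3 snRNA rows called in urine, for the 8 SD and 8 HFD libraries (points), with the mean and standard deviation (dash and bar). Most HFD libraries lie below most SD libraries, and the groups overlap in each panel.

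The other U1 rows with a small p leaned the same way without passing. U1.171 had a difference of -1.33 ± 0.59 (limma, adjusted p = 0.150), U1.5 of -1.13 ± 0.58 and U1.69 of -1.09 ± 0.60, the last with 4 HFD rats below and 1 above every SD rat. U1.171 passed without SD rat 1244 or HFD rat 1255 and with DESeq2 (limma, adjusted p = 0.0568 and 0.0747; DESeq2, 0.0595). It also passed without SD rat 1244 and HFD rat 1275 together and with scaling to equal totals, the tRNA total or the miRNA total (limma, adjusted p = 0.0765, 0.0793, 0.0802 and 0.0140). U1.5 passed without SD rat 1244 and U1.69 without HFD rat 1255 (limma, adjusted p = 0.0974 and 0.0909), and both passed with the miRNA total (0.0178 and 0.0211). The miRNA total moved the median of all urine rows from 0.06 to -1.21, and U1.171, U1.5 and U1.69 were then at -2.79, -2.63 and -2.68. Equal totals and the tRNA total moved that median to -0.25 and -0.26. Over the 15 U1 rows, 10 were at or below 0 and the median was -0.44. Of all 500 urine rows tested, 266 were above 0.

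U2 rows were split. U2.10 (1.05 ± 0.60) and U2.83 (1.04 ± 0.62), which differed from each other by 2.96% summed over the libraries, and U2.79 (0.75 ± 0.60) were higher on average in HFD without passing. Of the 12 U2 rows, 8 were below 0 and the median was -0.20, beside 266 of all 500 rows above 0. U2.79 was at 23.8 to 332 (median 103) in SD and 36.4 to 650 (median 232) in HFD. U7.31 and U7.39 had equal values and a difference of 0.72 ± 0.49. HFD rat 1271 was highest, at 15.6 against 3.77 or less in the other libraries. With each library left out in turn, the median over the U7 rows ran from 0.37 to 0.87. U5.6 had 0.59 ± 0.46. U1.70, U12.4, U5.1, U4.56 and AABR07061187.1, the leading rows of their groups, had differences from 0.02 to 0.45 with adjusted p from 0.689 to 0.977 in limma.

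The proteins and enzymes of the snRNPs were read from the kidney mRNA of the same animals. A list of 117 genes for snRNP proteins and for snRNA transcription, processing and assembly had 110 members in the mRNA table. None passed an adjusted p under 0.05 in limma (0 of 13673 genes, 0%, smallest adjusted p = 0.918). At an unadjusted p under 0.05, 2 members were higher and 2 lower in HFD, beside 1.79% and 2.55% of all genes, and the median log2 difference was -0.04 beside -0.02.

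Over the whole list, 42 of 110 genes were above 0, and the share of all genes below 0 is not given here. The counts by group are therefore a description only. Of the 8 Sm ring proteins, which coat the RNA polymerase II snRNAs, 7 were below 0, with a median of -0.17. The 23 measured genes of the LSm ring, which binds U6, and of the U4, U5 and U6 tri-snRNP had 9 above and 14 below 0 and a median of -0.04. The U1 snRNP genes had 3 of 5 below 0 (median -0.24), the U2 snRNP genes 8 of 12 (median -0.09) and the minor spliceosome genes 8 of 9 (median -0.11). The 25 genes of snRNA transcription and 3′ processing had a median of 0.02, and the 28 of snRNA export, assembly and modification had 12 above and 16 below 0 and a median of -0.01.

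The 6 list members with the smallest p were Scnm1, a minor spliceosome protein, at 633 ± 112 in SD and 485 ± 109 in HFD (s.d., n = 8 each; -0.39 ± 0.14), Ints2, an Integrator subunit, at 127 ± 22.3 and 157 ± 24.2 (0.31 ± 0.13), and Snrpa, a U1 snRNP protein, at 234 ± 90.8 and 160 ± 34.6 (-0.49 ± 0.23). Snrpn, an Sm protein, differed by 0.28 ± 0.13, Coil, the Cajal body protein coilin, by 0.21 ± 0.12 and Lsm4, a member of the ring that binds the end of U6, by -0.60 ± 0.36. Each had an adjusted p of 0.918 in limma.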

How the data were processed

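Per the labels, reads were trimmed with Cutadapt, mRNA was quantified with Salmon and small RNA with Subread on Rnor6.0. The authors deposited counts normalized with DESeq2 1.24.0 (a signal, not whole counts). Division by the size factor was undone for all 31 small RNA libraries, in which 100% of values came out whole within 0.01. How multi-mapping reads were counted is not given in the sources used here.

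log2(normalized reads + 1) was tested with limma 3.58.1 (R 4.3.3), trend on, over all rows with a mean of at least 5 (kidney) or 1 (urine), with Benjamini-Hochberg adjustment over all rows. edgeR 4.0.16 and DESeq2 1.42.0 on the recovered reads, other pseudocounts, filters and scalings, and each library left out were alternatives. Rows were named if past a threshold, among the 6 smallest p in a direction, leading a family, or listed by the study. The members and lists were chosen with earlier results of these data known. The limma fit was also run on simulated data. Changes were placed there only on rows of higher mean, with no shared reads and no row differing between the sets of size factors. That run therefore does not bear on the low U6, U4 and urine rows or on the sets. Lesions per rat are not in the labels and were not analysed here. No sequences were used here.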

Additional observations from a re-analysis of the deposited data

Results flagged for a closer look

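A single library lay far from the others of its group in 8 of 34 groups examined (the sums of 7 families in each diet and material, and the 3 called urine rows in each diet). Chance gives about 1 in 20 for independent, normally distributed groups, whereas these values are untransformed, all 8 lie at the high end and families share libraries, so the chance rate here is not known. In kidney, the U1 sum of HFD rat 1274 was 10848 normalized reads against a median of 5819 in the other HFD rats. The U4 sum of SD rat 1251 was 253 against 91.5, and the U7 sum of SD rat 1248 was 12435 against 5555.

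In urine, the U1 sum of HFD rat 1255 was 3526 against 744. HFD rat 1275, with 620 snRNA reads, had a U12 sum of 67.9 against 11.8 and a U4 sum of 7.54 against 2.23. That U4 sum is 1 read on each of U4.56 and U4.8, rows equal in 14 of 16 libraries, and lies under the limit of 11.3 that 3 reads give in that library. The U7 sum of HFD rat 1271 was 46.7 against 4.21. U1.42 in SD rat 1245 was 37.5 against 10.8, and its call was lost without that rat. No explanation of these values was tested.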

How the results depend on the processing

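For the diets, no paired analysis was possible because the SD and HFD groups held different rats. The number of kidney snRNA rows called stayed at 0 under every alternative run. In urine it was 3, and became 14 with scaling to the miRNA total, 5 with DESeq2, and 2 to 5 on leaving out each library in turn (5 without SD rat 1244 or HFD rat 1255). The share of all urine rows called under these settings is not given here, so the counts cannot be read as particular to snRNAs. Scaling to the miRNA total moved the median of all urine rows to -1.21, and U6.709 was then -3.61, or -2.40 relative to that median. Equal library totals moved the kidney median to 0.23, and the U6 median was then 1.2 relative to it. The kidney U6 median ran from 1.05 to 1.68 on leaving out a library and from 0.61 to 1.47 under the other settings, and the U4 median from 0.87 to 1.27 and from 0.18 to 1.51, whereas the medians of U1, U2, U5 and U12 changed sign under some settings. The urine snRNA share of 0.0898% became 7.20% when only snRNA, miRNA, snoRNA and rRNA reads were the denominator, since tRNA reads left it, and the kidney share of 0.879% became 0.934%, so that urine then had the higher share. The causes of the other changes were not tested. Reads of 197 to 6483 per urine library limit what can be seen for U4, U5 and U7 there.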

Other observations

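Several snRNA rows lie close together in the genome (Rnor6.0). U1.165, U1.190 and U1.205 lie within 75606802 to 75622959 on chromosome 6, U5.10, U5.13 and U5.11 within 136057592 to 136071340 on chromosome 5, U5.1 and U5.12 within 70698680 to 70702156 on chromosome 8, and U4.8 and U4.19 within 46862390 to 46863344 on chromosome 12, with 674 bases between them. Of the chromosome 6 rows, U1.165, U1.190 and U1.205 had kidney means of 992, 1487 and 890 normalized reads and urine means of 95.1, 198 and 32.6. U5.1 and U5.12 had kidney means of 1943 and 1720 and urine means of 4.20 and 3.29. These rows were picked by position and not by diet.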
